A study of Rattus norvegicus with 21 samples.

Results

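The genes described are those that make, regulate, carry and export cholesterol: 33 were listed by their known roles, and 31 of them had a probe set of their own on the array, out of 10804 genes tested. A gene was taken as measured when a probe set was annotated to its symbol and to no other, and where a gene had several such probe sets the one with the highest mean stood for it. The 31 comprised 17 synthesis enzymes, 4 sterol-sensing regulators and 10 export and transport genes. All 31 passed the filter on dim probe sets, and the dimmest were Nr1h3 with a mean log2 value of 7.46, Mylip with 7.58 and Stard4 with 8.01, against a filter level of 7.165. Hmgcs1 had no probe set assigned to it and Srebf1 shared its only probe set with Pemt, so neither was analysed here.

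Cells build cholesterol from acetyl-CoA through mevalonate, the isoprenoid diphosphates, squalene and lanosterol. When sterols in the endoplasmic reticulum run low, the escort protein Scap carries the transcription factors of the SREBP family to the Golgi, where they are cut and freed to switch on the synthesis genes, and the Insig proteins hold Scap back when sterols are plentiful. The adult brain makes its own cholesterol behind the blood-brain barrier: oligodendrocytes use much of it for myelin, astrocytes pass it to neurons on apolipoprotein E particles, and neurons clear the excess by turning it into a hydroxylated form that leaves the brain. Liver X receptors, encoded by Nr1h2 and Nr1h3, sense oxidised sterols and switch on the export genes.

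RNA was taken from the dentate gyrus, the hippocampal field of the granule neurons, of 18 male wild type Wistar rats labelled as 2 months old. There were 6 groups of 3 animals: untreated controls, animals after 6 weeks of unpredictable chronic mild stress with no drug, and 4 groups given the same stress plus a daily intraperitoneal antidepressant for its last 2 weeks. Fluoxetine, a serotonin reuptake inhibitor, imipramine, a tricyclic, and tianeptine, an atypical tricyclic, were each given at 10 mg/kg, and agomelatine, a melatonin receptor agonist, at 40 mg/kg. Fluoxetine was dissolved in water, imipramine and tianeptine in saline and agomelatine in hydroxyethylcellulose, and injections are described for the drug groups alone, so drug, vehicle, dose and injection cannot be told apart. Each control animal was also run on a repeat array, and its 2 arrays were averaged.

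Levels are given as log2 expression values, with array medians of 7.99 to 8.10, so that a difference of 1 is a doubling. Groups are compared for 1 gene at a time across animals. Where mean levels of several genes are given, they show only how bright or dim each probe set was. Called genes, which alone are described as rising, falling or changing, had an adjusted p under 0.05 in limma's moderated test over all 10804 genes. The p-values rest on a spread between animals estimated for each gene over all 6 groups of 3 and moderated over all genes. It is not the spread of the 2 groups compared alone. The median SD between animals of a group was 0.0944 over the cholesterol genes and 0.101 over all genes, and by group it ran from 0.0631 with imipramine to 0.114 with agomelatine. The granule neuron marker Prox1 had a mean log2 value of 11.54 and C1ql2 of 11.70, whereas Tdo2 was dim at 5.31.

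Scores of some cell type markers set the agomelatine group apart, as the plot of marker scores by animal shows. A score is the mean, over the markers of a cell type, of an animal's log2 level after subtracting the average of that gene in all 18 animals. The oligodendrocyte score was 0.421 to 0.780 in the agomelatine animals and -0.212 to 0.0416 in the other 15, and 11 of 11 tested markers were higher with agomelatine than with stress, with no marker lower. The granule neuron score was -0.259 to -0.106 with agomelatine and -0.0929 to 0.127 elsewhere, with 2 of 5 tested markers lower and 1 higher than with stress. The choroid plexus score was 3.24 in agomelatine 1 and 0.847 in stress 1, and at most -0.097 in every other animal. The CA pyramidal neuron score was 0.572 in agomelatine 1, 0.588 in agomelatine 2 and 0.365 in stress 3, and at most 0.013 elsewhere. With agomelatine 2 of 6 tested markers were called higher than with stress and 0 lower. In such tissue samples a change in the number of cells of a type and a change in RNA per cell cannot be told apart, and the part of these markers in the cholesterol results was not tested.

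**Figure D1:**
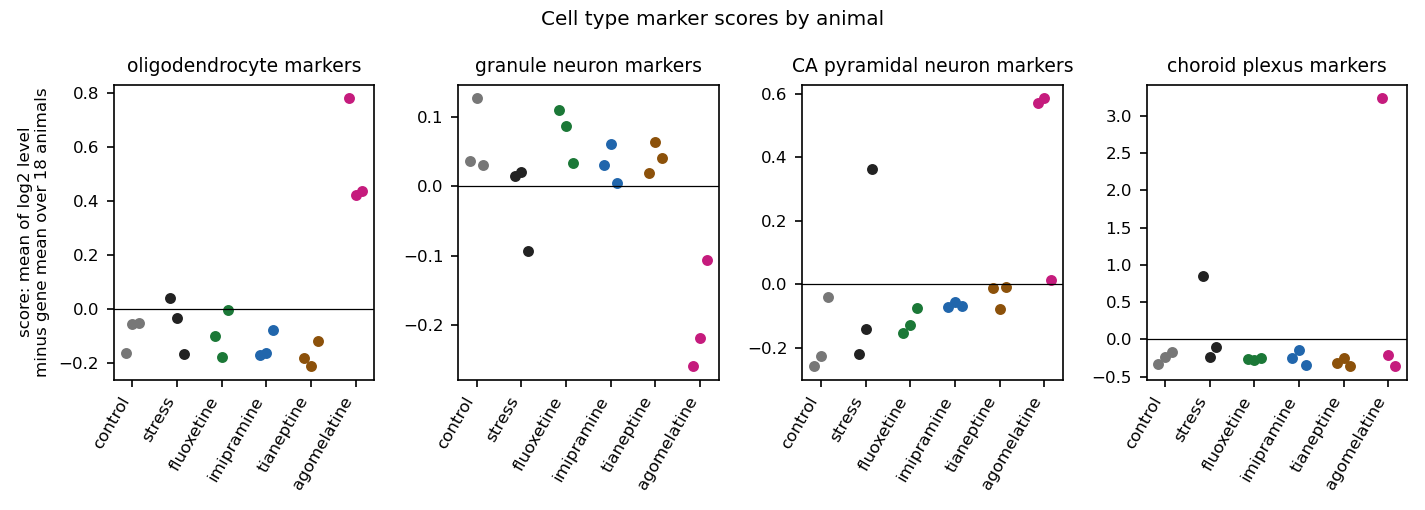
Marker scores of 4 cell types (vertical axes, mean log2 level minus the gene mean over 18 animals) for each animal of the 6 groups (horizontal axes); each point is 1 animal. The 3 agomelatine animals lie above the other 15 for oligodendrocyte markers and below them for granule neuron markers, and agomelatine 1 stands apart at 3.24 for choroid plexus markers.

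Promoter sequence is shown for 5 of the genes called in a comparison below, because the members of this pathway are classically driven by shared promoter elements. Acat2 and Lss, also called and with a promoter window, are not printed. The RefSeq promoter table, on build GRCr8, held a window of 250 bases before to 50 bases after the transcription start for 26 of the 31 genes (14 of 17 enzymes, 4 of 4 regulators and 8 of 10 export genes). The 200 bases before the start are printed 5′ to 3′ on the gene's own strand for Insig1 (chr4:8057770-8057969, minus strand), Idi1 (chr17:66547525-66547724, minus strand), Cyp51 (chr4:30991493-30991692, plus strand), Msmo1 (chr16:29746913-29747112, plus strand) and Cyp46a1 (chr6:133011790-133011989, plus strand). Capitals mark CCAAT or its other strand ATTGG, the site of the factor NF-Y, and CACGTG, an E-box.
Insig1: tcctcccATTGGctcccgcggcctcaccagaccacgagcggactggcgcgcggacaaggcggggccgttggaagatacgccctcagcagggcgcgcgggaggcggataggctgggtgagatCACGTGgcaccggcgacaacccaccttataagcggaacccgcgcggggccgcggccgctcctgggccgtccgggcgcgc
Idi1: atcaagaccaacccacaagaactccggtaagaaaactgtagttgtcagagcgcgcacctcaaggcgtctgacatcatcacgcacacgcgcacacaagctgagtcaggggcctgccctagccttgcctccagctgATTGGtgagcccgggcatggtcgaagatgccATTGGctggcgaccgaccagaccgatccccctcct
Cyp51: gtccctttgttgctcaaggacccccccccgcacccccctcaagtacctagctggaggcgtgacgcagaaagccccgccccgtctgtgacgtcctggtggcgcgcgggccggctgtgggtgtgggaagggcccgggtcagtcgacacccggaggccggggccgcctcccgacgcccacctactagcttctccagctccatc
Msmo1: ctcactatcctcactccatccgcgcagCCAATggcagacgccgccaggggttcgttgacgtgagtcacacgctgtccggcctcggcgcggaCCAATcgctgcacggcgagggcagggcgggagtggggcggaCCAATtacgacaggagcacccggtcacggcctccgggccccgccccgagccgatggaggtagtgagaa
Cyp46a1: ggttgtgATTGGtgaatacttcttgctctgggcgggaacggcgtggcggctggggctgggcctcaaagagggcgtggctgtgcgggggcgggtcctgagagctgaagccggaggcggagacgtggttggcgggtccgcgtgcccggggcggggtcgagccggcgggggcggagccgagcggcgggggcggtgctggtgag

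The Insig1 stretch held 1 CCAAT match and 1 CACGTG match, the Idi1 stretch 2 CCAAT matches, the Msmo1 stretch 3 and the Cyp46a1 stretch 1, while the Cyp51 stretch held none of either. Of the genes not printed, Acat2 had no CCAAT match in its whole window and Lss had 1. Searched on both strands over the whole window, with overlaps between motifs allowed, CCAAT occurred in 11 of the 14 enzymes with a window (78.6%), in 3 of the 4 regulators (75%) and in 5 of the 8 export genes (62.5%), against 39.6% of the 27457 genes in the table. The GC box GGGCGG occurred in 12 of 14 enzymes (85.7%), 3 of 4 regulators and 6 of 8 export genes, against 36% of all genes, and CACGTG in 4 of the 26 genes (15.4%) against 7.08%. The sterol element TCACNCCAC occurred in 0 of 26 genes and in 1.25% of all genes, and its shorter core CACNCCAC, which any TCACNCCAC match also holds, in Acat2, Ebp and Insig1 (11.5%) against 6.25%. The liver X receptor element, a direct repeat of AGGTCA with a spacer of 4 bases, occurred in 0 of 26 and in 0.00728% of all genes. These are matches of letters in a short window and were not tested as sites.

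Among the 6 groups, limma's F test called 3 of the 31 genes (9.68%) beside 6.76% of all genes tested. They were Insig1, an anchor of Scap (limma adjusted p = 0.0158), Cyp46a1, the neuronal cholesterol hydroxylase (limma adjusted p = 0.0214), and Idi1, the isomerase of isopentenyl diphosphate (limma adjusted p = 0.0251). Acat2 (limma adjusted p = 0.0578) and Msmo1 (limma adjusted p = 0.0663) came next and were not called. Without agomelatine 1, which had the high choroid plexus score, no gene of the 31 was called in the F test. The heatmap of all 31 genes in each animal shows the widest spread in Idi1, from 7.94 in control 1 to 9.03 in agomelatine 1.

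**Figure D2:**
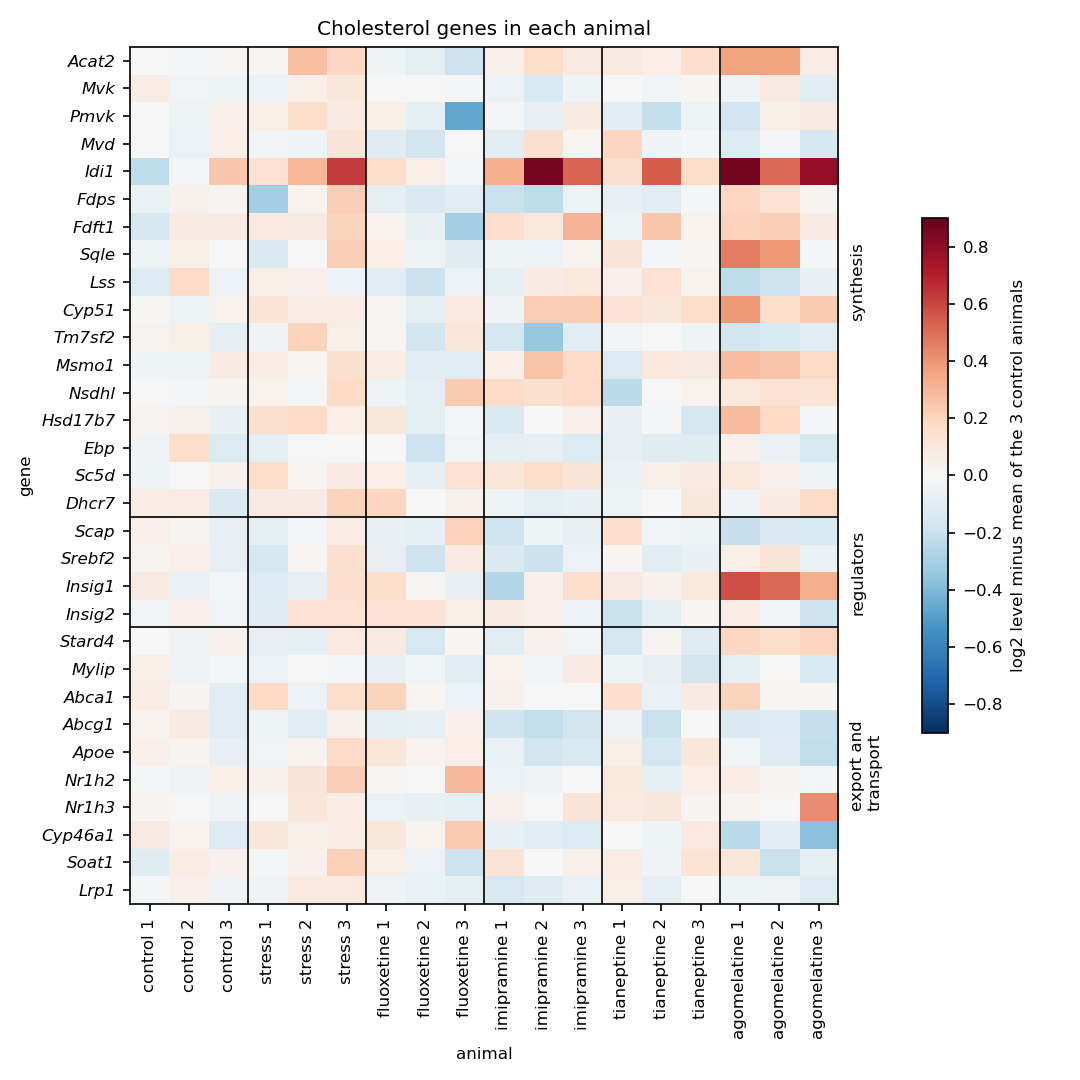
Log2 level of each of the 31 cholesterol genes (rows, in order of role) in each of the 18 animals (columns), minus the mean of the 3 control animals; red is higher and blue is lower than that mean. Insig1 is red in all 3 agomelatine animals, Idi1 is red in most stressed and drug-treated animals, and Cyp46a1 is blue in the agomelatine animals.

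The comparison of stress with control asks what 6 weeks of stress alone did to these genes. No cholesterol gene was called, as was the case for 0% of all genes tested (583 genes, 5.4%, at an unadjusted p under 0.05). Of the 17 enzymes, 15 had a higher mean in stressed animals, with a median log2 difference of 0.078, while 60.4% of all genes lay higher with a median of 0.023. With the first arrays of the controls alone the enzyme count was 12 of 17 with a median of 0.027, and with the repeat arrays alone it was 16 of 17 with a median of 0.110. With equal array medians 11 of 17 enzymes lay higher, with a median of 0.025 beside -0.030 over all genes.

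Idi1 had the smallest p among the cholesterol genes in this comparison. Its log2 values were 7.94, 8.15 and 8.41 in the controls and 8.31, 8.47 and 8.79 in the stressed animals. The groups overlapped, since control 3 lay above stress 1, and the difference was 0.35 ± 0.15 (SE; limma adjusted p = 0.828). Acat2, the thiolase that starts the pathway, read 9.74, 9.73 and 9.75 in the controls and 9.75, 10.01 and 9.93 after stress. Control 3 and stress 1 both read 9.75 to 2 decimals, the groups did not overlap, and Acat2 differed by 0.16 ± 0.08 (limma adjusted p = 0.828).

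Hsd17b7, a reductase of the sterol ring, read 9.05, 9.06 and 8.96 in the controls and 9.17, 9.20 and 9.09 after stress. Its groups did not overlap and differed by 0.13 ± 0.08, while Dhcr7, the last reductase before cholesterol, read 9.31, 9.30 and 9.11 against 9.32, 9.32 and 9.45, a difference of 0.12 ± 0.07. Sc5d, a sterol desaturase, differed by 0.08, and the liver X receptor gene Nr1h2 by 0.13, with groups that overlapped. In all, 6 of the 31 genes (19.4%) had groups that did not overlap, beside 13.1% of all genes: Acat2, Pmvk, Fdft1, Cyp51, Hsd17b7 and Dhcr7, each an enzyme and each higher in the stressed animals, a direction in which 8.02% of all genes did not overlap. None of these differences was past the threshold. Only the control values are means of 2 arrays, and overlap was not counted with the first or the repeat arrays alone. From first to repeat array the controls changed on average by -0.10 for Acat2, -0.03 for Pmvk and -0.16 for Fdft1. For Cyp51 the change was -0.01, for Hsd17b7 -0.10 and for Dhcr7 -0.21.

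The 4 regulators differed by between -0.02 and 0.06 after stress, and the 10 export and transport genes by between -0.03 and 0.13 with a median of 0.060. With the first control arrays alone the export median was 0.012, and without stress 3 it was 0.021. Insig1 read 10.89, 10.75 and 10.79 in the controls and 10.68, 10.73 and 10.96 after stress, so the stressed animals spanned the controls.

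Agomelatine against stress was the drug comparison with called cholesterol genes. Insig1 was higher and Cyp46a1 lower, which is 2 of 31 genes (6.45%) beside 10.8% of all genes tested, of which 4.18% were called higher and 6.58% lower. No enzyme passed, and 9 of 17 enzymes lay higher and 8 lower, with a median of 0.026 (-0.012 without stress 1) beside -0.025 over all genes. With equal array medians the enzyme median was 0.075 beside 0.024 over all genes, and the enzyme genes Sqle and Cyp51 passed as well (Cyp51 0.22, limma adjusted p = 0.0305). In the fit without that scaling, the share called among the cholesterol genes was below that of all genes. In the same comparison 11 of 11 tested oligodendrocyte markers and 2 of 6 CA pyramidal markers were called higher. Of 5 granule neuron markers, 2 were called lower and 1 higher. The part of these markers in these differences was not tested.

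Insig1 encodes the protein that holds Scap in the endoplasmic reticulum and is itself a target of the SREBP factors. It read 11.38, 11.31 and 11.14 with agomelatine (mean 11.28 ± 0.13, SD, n = 3 animals), against 10.68, 10.73 and 10.96 with stress alone (10.79 ± 0.15). Each agomelatine animal lay above each of the 15 other animals, the highest of which was 10.96. The rise over stress was 0.49 ± 0.10 (SE), or 1.40-fold, with limma adjusted p = 0.0046, and without agomelatine 1 it was 0.43 with limma adjusted p = 0.0198. With the oligodendrocyte score as a covariate the difference was 0.45 and was no longer called (limma adjusted p = 0.383). The score was higher in each agomelatine animal than in the 15 other animals, so this fit cannot tell the score from the group. Under that covariate, 0 of the cholesterol genes were called in each of the 5 comparisons of agomelatine.

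Fluoxetine animals read 10.96, 10.82 and 10.74 for Insig1, imipramine animals 10.54, 10.85 and 10.96, and tianeptine animals 10.88, 10.84 and 10.90. These 9 animals ran from 10.54 to 10.96, and the controls and stressed animals from 10.68 to 10.96. A second Insig1 probe set, not used in the test, averaged 10.21 ± 0.05 with agomelatine, 9.99 ± 0.13 with stress and 9.84 ± 0.04 in controls, which is 0.22 and 0.36 higher. It was highest in the agomelatine group too, with a smaller difference.

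**Figure D3:**
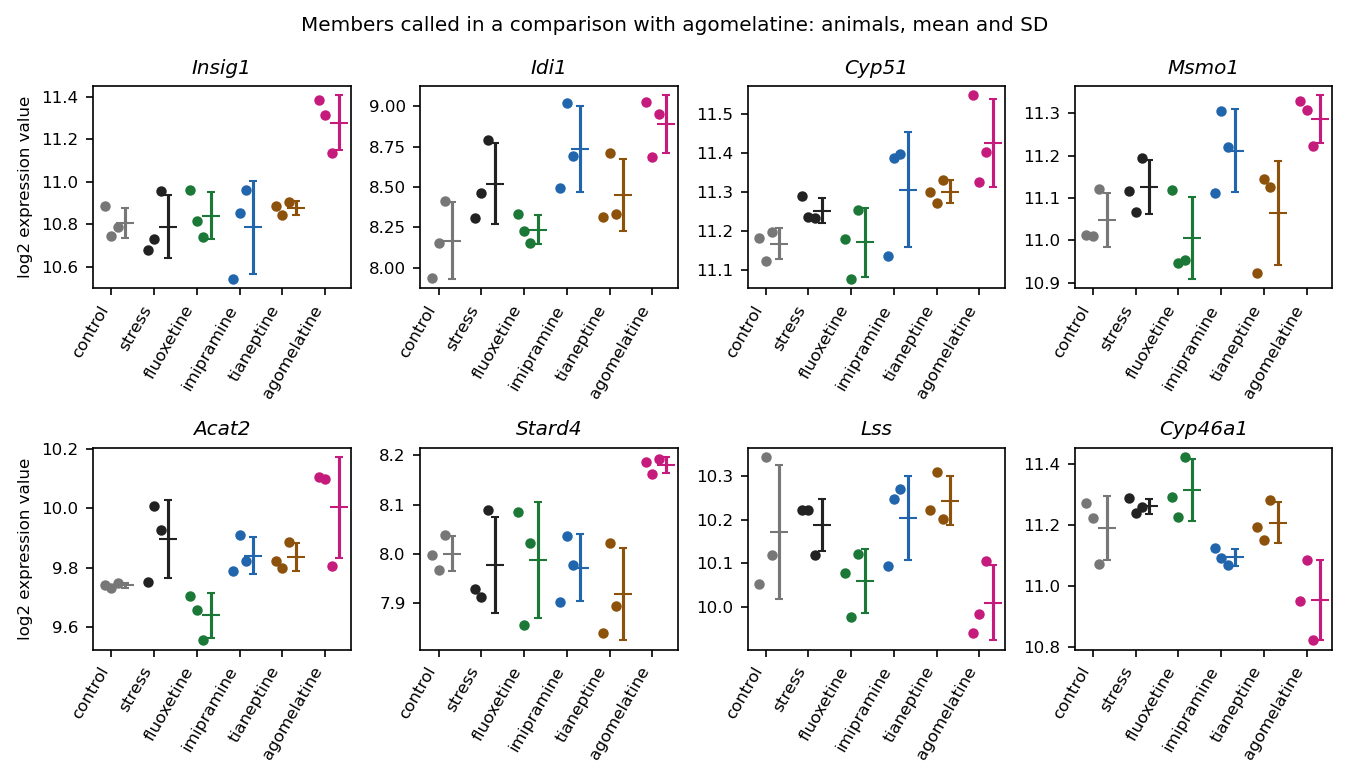
Log2 expression values (vertical axes) of the 8 cholesterol genes called in any comparison with agomelatine, for each animal (points) of the 6 groups (horizontal axes), with the mean and SD over 3 animals beside them. Insig1 and Stard4 of all 3 agomelatine animals lie above the other 15 animals, while imipramine and agomelatine animals share a range for Idi1, Cyp51 and Msmo1.

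The other regulators were not called with agomelatine. Scap, the sterol sensor that escorts the factors, read 10.69, 10.77 and 10.76 against 10.81, 10.89 and 10.96 with stress, and its groups did not overlap. It differed by -0.15 ± 0.08 (limma adjusted p = 0.227). Srebf2, the SREBP factor most tied to cholesterol synthesis, read 11.44, 11.49 and 11.31 against 11.22, 11.40 and 11.52, a difference of 0.04 with a 95% interval of -0.12 to 0.20. Insig2, the second anchor gene, differed by -0.10 (-0.27 to 0.06).

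Among the enzymes, differences from stress ran from -0.21 for Tm7sf2 to 0.37 for Idi1. Idi1 read 9.03, 8.69 and 8.96 with agomelatine, and stress 3 at 8.79 lay inside that range. It was 0.37 ± 0.15 above stress (limma adjusted p = 0.125). Cyp51, the lanosterol demethylase, read 11.55, 11.32 and 11.40 against 11.29, 11.23 and 11.23, without overlap, and was 0.17 ± 0.07 higher (limma adjusted p = 0.114). Tm7sf2, a sterol reductase, read 8.27, 8.30 and 8.34 against 8.40, 8.64 and 8.49, again without overlap. Its difference was -0.21 ± 0.08 (limma adjusted p = 0.109).

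The enzymes therefore lay on both sides of stress. Sqle, the squalene epoxidase, was 0.25 ± 0.10 higher (limma adjusted p = 0.124) and Msmo1, the methylsterol oxidase, 0.16 ± 0.07 higher (limma adjusted p = 0.142). Lss, which closes squalene epoxide into lanosterol, differed by -0.18 ± 0.08 (limma adjusted p = 0.135). The remaining enzymes differed by between -0.11 and 0.13, and 9 of all 31 genes (29%) had groups that did not overlap, beside 25.2% of all genes.

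Cyp46a1 encodes the hydroxylase by which neurons turn cholesterol into a form that leaves the brain. It read 10.95, 11.09 and 10.82 with agomelatine (10.95 ± 0.13) and 11.29, 11.24 and 11.26 with stress (11.26 ± 0.02). The groups did not overlap. Cyp46a1 fell by 0.31 on the log2 scale (SE 0.07), to 0.81 of the level with stress, with limma adjusted p = 0.00852, and without agomelatine 1 the fall was the same size with limma adjusted p = 0.0242. Agomelatine 3, which gave the lowest value, also had the lowest astrocyte score (-0.242), and without it the difference was -0.24 with limma adjusted p = 0.0331. The call was lost when only the 2 groups were fitted (-0.31, limma adjusted p = 0.0644). It was also lost with the oligodendrocyte score as a covariate (-0.36, limma adjusted p = 0.344), a fit that cannot tell that score from the agomelatine group.

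Stard4, a carrier of sterols through the cytosol, read 8.19, 8.16 and 8.19 with agomelatine, above all 15 other animals, which ran up to 8.09. Its difference from stress was 0.20 ± 0.08 (limma adjusted p = 0.0888), short of the threshold, and with array medians made equal it was 0.25 and past it (limma adjusted p = 0.0422). Apoe, the main lipid carrier protein of the brain, read 12.79, 12.70 and 12.60 against 12.79, 12.85 and 12.99. Its groups overlapped at 12.79, and it differed by -0.18 ± 0.07 (limma adjusted p = 0.0888).

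The remaining export genes were Abca1 and Abcg1, which pump cholesterol out of cells, Lrp1, a lipoprotein receptor, Soat1, which stores cholesterol as esters, Mylip, a ligase that marks lipoprotein receptors for destruction, and the receptors Nr1h2 and Nr1h3. They differed from stress by between -0.14 for Soat1 and 0.09 for Nr1h3, and none passed. Agomelatine 3 read 7.83 for Nr1h3, while the other 17 animals ran from 7.33 to 7.53. The 10 export and transport genes had a median of -0.107 (-0.063 without stress 3), with 8 of 10 below stress, while 56.6% of all genes lay below.

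Agomelatine against control, which differs by stress as well as by drug, had 6 called genes of 31 (19.4%) beside 9.59% of all genes tested. The 5 higher genes were the enzymes Acat2, Idi1, Cyp51 and Msmo1 and the regulator Insig1, and Cyp46a1 was lower. Beside them, 5.28% of all genes were called higher and 4.31% lower. The called enzymes sit at the start of the pathway, in its isoprenoid part and in the trimming of lanosterol. The comparison shares its agomelatine animals with that against stress, and the oligodendrocyte markers were higher here too, 11 of 11, with their part not tested.

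Idi1 read 7.94, 8.15 and 8.41 in the controls and 9.03, 8.69 and 8.96 with agomelatine. The groups were apart, and Idi1 rose by 0.72 ± 0.15, or 1.65-fold (limma adjusted p = 0.00689). Acat2 read 9.74, 9.73 and 9.75 in the controls and 10.10, 10.10 and 9.81 with agomelatine, and agomelatine 3 stood close to the controls. The tight control values are means of 2 arrays, which differed by -0.16, 0.12 and -0.26 as repeat minus first array. The rise of Acat2 was 0.26 ± 0.08 (limma adjusted p = 0.0429). With the first control arrays alone the difference was 0.21 and was not called (limma adjusted p = 0.091).

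For Cyp51 the controls read 11.18, 11.12 and 11.20 and the agomelatine animals 11.55, 11.32 and 11.40, a rise of 0.26 ± 0.07 (limma adjusted p = 0.0263). For Msmo1 they read 11.01, 11.01 and 11.12 against 11.33, 11.31 and 11.22, a rise of 0.24 ± 0.07 (limma adjusted p = 0.0369). Neither gene's groups overlapped. Insig1 rose by 0.47 ± 0.10 over its controls (limma adjusted p = 0.00549), close to its difference from stress.

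Cyp46a1 read 11.27, 11.22 and 11.07 in the controls, and control 3 lay below agomelatine 2 at 11.09, so these groups overlapped. Its difference from control was -0.24 ± 0.07 (limma adjusted p = 0.0358). With the repeat control arrays alone this was -0.16 (limma adjusted p = 0.168), and the repeat arrays of the same 3 animals were lower for Cyp46a1 by 0.28, 0.11 and 0.10.

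The calls for Insig1 and Idi1 against control held when any 1 control or agomelatine animal was left out. Without control 1, control 2 or agomelatine 1 they were the 2 cholesterol genes called. Acat2 lost its call without control 1 (limma adjusted p = 0.105), control 2 (0.132), control 3 (0.0822), agomelatine 1 (0.167) or agomelatine 2 (0.114). Cyp51 lost it without control 1 (0.0651), control 2 (0.115) or agomelatine 1 (0.125), and Msmo1 without control 1 (0.118), control 2 (0.142), agomelatine 1 (0.119) or agomelatine 2 (0.0719). Cyp46a1 lost it without control 1 (0.144), control 2 (0.137), agomelatine 1 (0.0895) or agomelatine 3 (0.12), all of these being limma adjusted p-values.

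**Figure D4:**
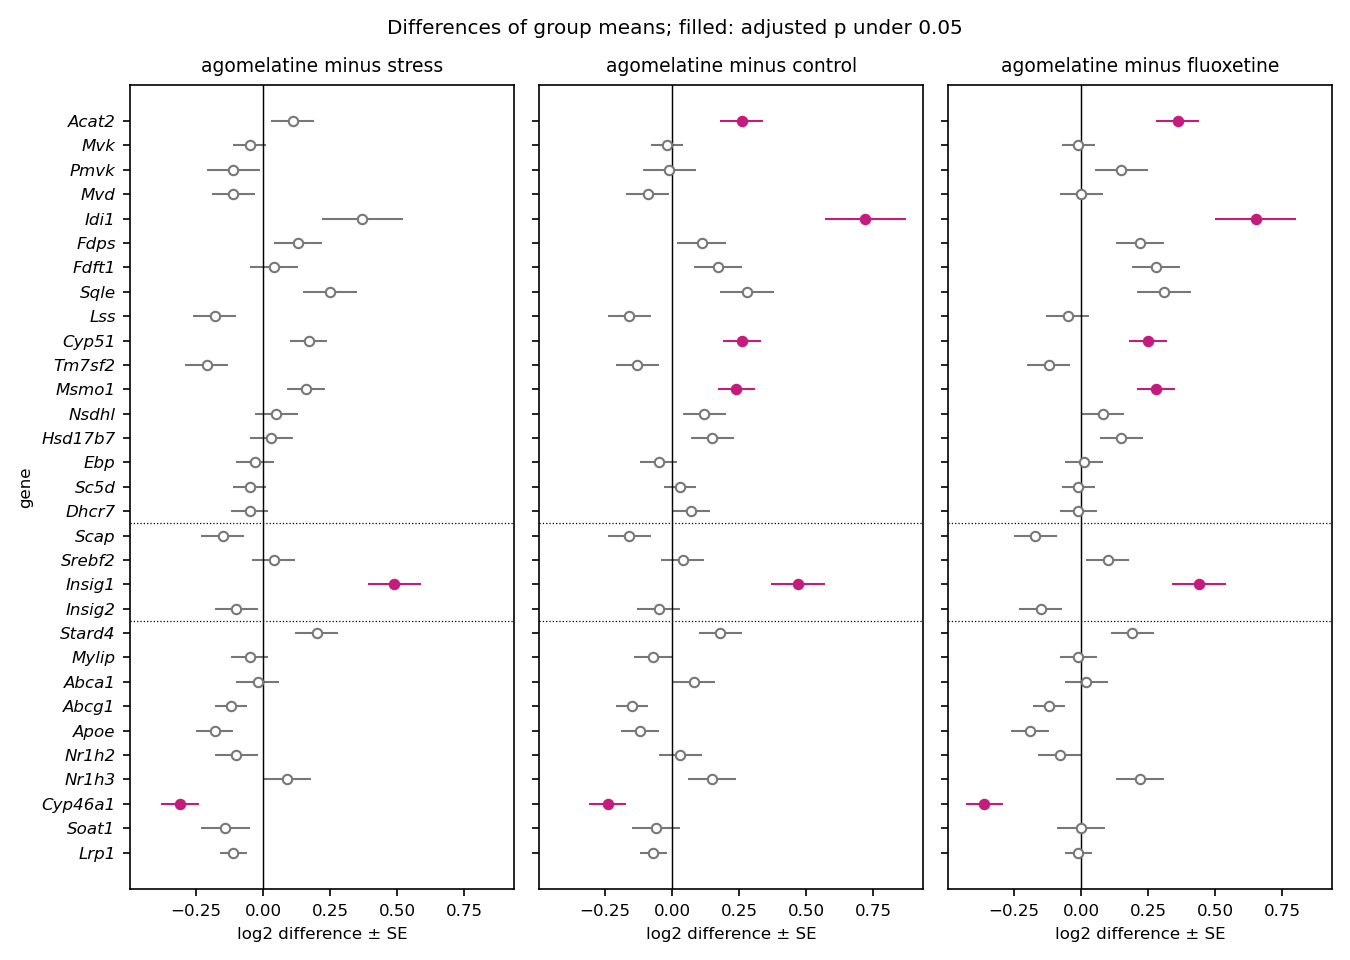
Differences of group means on the log2 scale (horizontal axes) ± SE for each of the 31 cholesterol genes (vertical axis, in order of role) for agomelatine minus stress, minus control and minus fluoxetine; filled points have a limma adjusted p under 0.05. Insig1 is filled to the right and Cyp46a1 to the left in all 3 panels, and Acat2, Idi1, Cyp51 and Msmo1 are filled in the panels against control and against fluoxetine.

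Fluoxetine against stress gave no call, as for 0% of all genes (541 genes at an unadjusted p under 0.05). All 17 enzymes had a lower mean with fluoxetine than with stress alone, with differences of -0.29 to -0.03, while 54% of all genes lay lower. The median was -0.089 beside -0.009 over all genes, and with array medians made equal 16 of the 17 lay lower with a median of -0.050. Each single difference was short of the threshold and no test was made over the list.

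Acat2 read 9.70, 9.66 and 9.55 with fluoxetine against 9.75, 10.01 and 9.93 with stress. The groups did not overlap, and the difference was -0.26 ± 0.08 (limma adjusted p = 0.959). Fdft1, the squalene synthase, read 11.38, 11.28 and 11.04 against 11.44, 11.43 and 11.55, also apart, with a difference of -0.24 ± 0.09 (limma adjusted p = 0.959). Pmvk, a mevalonate pathway kinase, read 8.72, 8.58 and 8.20 against 8.72, 8.82 and 8.75, and fluoxetine 3 was the low animal.

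The Pmvk difference was -0.26 ± 0.10 and became -0.11 without fluoxetine 3, and that of Fdft1 became -0.14 without the same animal. Idi1 read 8.33, 8.23 and 8.15 with fluoxetine, a difference of -0.29 ± 0.15 from stress, and it lay inside the range of the controls. Msmo1 differed by -0.12 and the receptor gene Lrp1 by -0.10. In 3 of the 31 genes (9.68%) the groups did not overlap, namely Acat2, Fdft1 and Nr1h3, beside 10.8% of all genes. Against control, fluoxetine had 6 of 17 enzymes higher and 11 lower, with a median of -0.029, and no call beside 0% of all genes.

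Imipramine against stress also gave no call, beside 0% of all genes (1081 genes at an unadjusted p under 0.05). Here 9 of 10 export and transport genes lay below stress, with a median of -0.118 beside -0.023 over all genes, of which 59.6% lay below. Enzymes were split, 8 higher and 9 lower. With equal array medians the export count below stress was 6 of 10 and the median -0.073.

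Apoe read 12.76, 12.65 and 12.67 with imipramine against 12.79, 12.85 and 12.99 with stress, a difference of -0.18 ± 0.07 (limma adjusted p = 0.465). Lrp1 read 11.59, 11.62 and 11.67 against 11.70, 11.82 and 11.82, a difference of -0.15 ± 0.05 (limma adjusted p = 0.459). In neither gene did the groups overlap. Abcg1 read 10.49, 10.46 and 10.51 against 10.63, 10.57 and 10.71 and differed by -0.15 ± 0.06 (limma adjusted p = 0.466).

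Cyp46a1 read 11.12, 11.09 and 11.07 with imipramine, below the 3 stressed animals, and differed by -0.17 ± 0.07 (limma adjusted p = 0.466). Among the enzymes Tm7sf2 read 8.28, 8.09 and 8.34 against 8.40, 8.64 and 8.49, a difference of -0.28 ± 0.08 (limma adjusted p = 0.459), and Dhcr7 differed by -0.19 ± 0.07. For 8 of the 31 genes (25.8%), all lower with imipramine, the groups did not overlap, beside 19.7% of all genes and 12.6% for lower genes.

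Against control, imipramine called no cholesterol gene beside 0.0185% of all genes. Idi1 read 8.49, 9.02 and 8.69, above each control animal, and the difference was 0.57 ± 0.15 (limma adjusted p = 0.368). With the repeat control arrays alone, and with array weights, Idi1 was called in this comparison. Imipramine and fluoxetine, given at the same dose, differed in Idi1, by -0.50 as fluoxetine minus imipramine (limma adjusted p = 0.326), with no overlap. In 10 of the 31 genes (32.3%) the groups of these drugs did not overlap, beside 20.3% of all genes, and none was called, as for 0% of all genes.

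Tianeptine against stress gave no call, beside 0% of all genes (547 genes at an unadjusted p under 0.05). Of the enzymes 13 of 17 lay below stress with a median of -0.061, and of the export genes 9 of 10 with a median of -0.055, beside 57.6% of all genes and a median of -0.016. With equal array medians these counts were 10 of 17 and 6 of 10, and without stress 3 the medians were -0.027 and -0.010.

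Hsd17b7 read 8.96, 9.02 and 8.87 with tianeptine against 9.17, 9.20 and 9.09 with stress, a difference of -0.20 ± 0.08 (limma adjusted p = 0.943). Pmvk read 8.56, 8.45 and 8.62 against 8.72, 8.82 and 8.75, a difference of -0.22 ± 0.10 (limma adjusted p = 0.943). These were the 2 genes (6.45%) whose groups did not overlap, beside 11.2% of all genes. Insig2 differed by -0.14, Nsdhl, a sterol dehydrogenase, by -0.13, and Dhcr7 and Nr1h2 each by -0.10. Against control, tianeptine called no cholesterol gene beside 0% of all genes, and 10 of 17 enzymes lay higher.

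The contrast of 2 drugs tests whether their differences from the same stressed animals are equal. Agomelatine against fluoxetine called 6 of 31 genes (19.4%) beside 11.8% of all genes, 5 higher beside 5.07% and 1 lower beside 6.71%. Higher with agomelatine were Acat2 by 0.36 ± 0.08 (limma adjusted p = 0.00692), Idi1 by 0.65 ± 0.15 (0.0101), Cyp51 by 0.25 ± 0.07 (0.0244), Msmo1 by 0.28 ± 0.07 (0.0143) and Insig1 by 0.44 ± 0.10 (0.00715). Cyp46a1 was lower, with a difference of -0.36 ± 0.07 (limma adjusted p = 0.00294).

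The fluoxetine animals read 11.29, 11.22 and 11.43 for Cyp46a1, and 13 of the 31 genes (41.9%) had groups that did not overlap between these drugs, beside 24.5% of all genes. Cyp51 lost its call without fluoxetine 1 (limma adjusted p = 0.0536), fluoxetine 2 (0.101) or agomelatine 1 (0.106), and Msmo1 without fluoxetine 2 (0.0577). Doses were 40 and 10 mg/kg, and the other 4 calls held whichever animal of these groups was left out.

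Against imipramine, Insig1 alone was called, 0.49 ± 0.10 higher with agomelatine (limma adjusted p = 0.00443), 1 of 31 genes (3.23%) beside 9.39% of all genes. Idi1, Cyp51 and Msmo1 shared a range in the 2 groups. Against tianeptine 5 of 31 (16.1%) were called beside 13.5% of all genes. Insig1 was higher by 0.40 ± 0.10 (limma adjusted p = 0.0106), Stard4 by 0.26 ± 0.08 (0.0293) and Msmo1 by 0.22 ± 0.07 (0.0422), and Cyp46a1 and Lss were lower, with differences of -0.26 ± 0.07 (0.021) and -0.23 ± 0.08 (0.0474). Without agomelatine 1 none of these 5 was called, and Insig1 then differed by 0.35 (limma adjusted p = 0.0501).

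Leaving out tianeptine 1 left 1 of the 5 calls and leaving out tianeptine 3 left 2. Tianeptine 1 gave the lowest Msmo1 value, 10.92 beside 11.14 and 11.13, and without it that difference was 0.15 (limma adjusted p = 0.208). Msmo1 also lost its call without agomelatine 1 or 2, Stard4 and Cyp46a1 each without tianeptine 1, tianeptine 3, agomelatine 1 or agomelatine 3, and Lss without any 1 of the tianeptine animals or without agomelatine 1 or 2. In the pairs of drugs without agomelatine, no cholesterol gene and 0% of all genes was called.

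A wider list of the pathway, further sterol synthesis and regulation, lipoprotein uptake, lipoprotein carriers, oxysterols and storage, and fatty acid synthesis, had 48 tested genes. Against stress, agomelatine called 3 of 48 higher and 1 lower, beside 4.18% higher and 6.58% lower of all genes tested. They were Apod, a lipid-binding apolipoprotein (0.40 ± 0.07, limma adjusted p = 0.00373), Me1, an enzyme that supplies reducing power for lipid synthesis (0.30 ± 0.08, 0.0209), Osbp, an oxysterol-binding transfer protein (0.20 ± 0.06, 0.0437), and Stard3, a sterol transfer protein of late endosomes (-0.46 ± 0.09, 0.00465). No gene of the 7 tested for uptake and lysosomal release passed against stress or control.

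Against control 4 of 48 were higher with agomelatine, Abca7, Apod, Me1 and the acyl-CoA synthetase gene Acsl3, and none was lower, beside 5.28% higher and 4.31% lower of all genes. Against fluoxetine 4 were higher (Apod, Me1, Acsl3 and Acss2) and 3 lower, beside 5.07% and 6.71% of all genes, the lower ones being Stard3, Lcat, which esterifies cholesterol on lipoproteins (-0.58 ± 0.16, limma adjusted p = 0.0232), and Mbtps2, a protease that frees the SREBP factors (-0.31 ± 0.06, 0.0056). Against imipramine Apod was higher (0.47 ± 0.07, limma adjusted p = 0.00101) and Stard3 and Mbtps2 were lower (-0.35 and -0.21), where 5.04% of all genes were higher and 4.35% lower. Against tianeptine Apod and Me1 were higher (0.48 and 0.36) and Stard3 and Mbtps2 lower (-0.36 and -0.25), where 6.51% of all genes were higher and 6.98% lower. None of the 48 was called in stress against control or in fluoxetine, imipramine or tianeptine against stress.

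The 3 repeat arrays of the controls show how far a gene moved between 2 arrays of 1 animal. Of the 31 genes, 12 (38.7%) moved the same way in all 3 animals, 11 lower and 1 higher, beside 44.7% of all genes. The median change over the cholesterol genes was -0.076 beside -0.019 over all genes. Dhcr7 was lower by 0.24, 0.25 and 0.14 and Idi1 by 0.16 and 0.51 in control 1 and control 3, with 0.05 higher in control 2. Insig1 moved by -0.16, 0.13 and -0.07. The differences of Insig1 between agomelatine and the other groups, 0.40 to 0.49, were larger than these. Between stress and control, Dhcr7 differed by 0.12 and Sc5d by 0.08, less in size than their own mean changes between arrays, -0.21 and -0.13. Acat2 differed by 0.16 and Hsd17b7 by 0.13, more in size than their mean changes of -0.10 each. In control 3 these 2 genes moved by -0.26 and -0.17. The differences between stress and control use the mean of the same control arrays, so they are not independent of these changes.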

How the data were processed

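Dentate gyrus RNA from 18 rats was hybridised to 21 Affymetrix arrays, 3 of them repeats of the control animals. Per the submitters' processing notes, the authors ran RMA (Affymetrix Expression Console 1.2), and the deposited table holds a log2 value for each probe set and array. The array's genome build and the run dates are not given in the sources used here. RMA subtracts background and quantile-normalises arrays, which can shrink small differences at low signal. Arrays give no read depth, so the number of animals limits the precision.

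Of 29214 probe sets, 15310 had 1 symbol in the platform annotation, 323 several and 13581 none, and 15279 matched RefSeq by gene number. Probe sets with a mean at or above the 25th percentile (log2 7.165) gave 10804 genes. The model, fitted to all 18 animals with limma 3.58.1 (R 4.3.3), had a mean for each group, 12 residual degrees of freedom and eBayes with trend, with Benjamini-Hochberg adjustment over 10804 genes in each of 15 comparisons. Intervals are 95% intervals from the moderated fit. The script was tested on simulated data. Full values are given for genes called against stress or control. Where stress against control or a drug against stress called fewer than 6, those of smallest p up to 6 are named too, some by their difference alone. Members, gene lists and marker lists were chosen with earlier results of these data known, so no test over a list was made. Comparisons with stress share the stressed animals and those with control share the controls. Animals with the same number did not deviate together (mean correlation -0.00587 over 45 pairs). Alternatives covered control arrays, filter, scaling, weights, covariates and left-out animals.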

Additional observations from a re-analysis of the deposited data

Results flagged for a closer look

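In 12 results the agomelatine group differed from another drug group, both set against the same stressed animals. The contrast between the 2 groups tests this directly (limma adjusted p under 0.05). Doses and vehicles differed between agomelatine and the other drugs, and groups of 3 animals were not searched for outlying samples. Against each of fluoxetine, imipramine and tianeptine, 11 of 11 tested oligodendrocyte markers were called higher with agomelatine. The part of these markers in the 12 results was not tested.

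Against fluoxetine, the difference between the groups was 0.65 for Idi1, 0.44 for Insig1, 0.36 for Acat2, 0.28 for Msmo1, 0.25 for Cyp51 and -0.36 for Cyp46a1 on the log2 scale. Against tianeptine it was 0.40 for Insig1, 0.26 for Stard4, 0.22 for Msmo1, -0.23 for Lss and -0.26 for Cyp46a1. Against imipramine it was 0.49 for Insig1. Insig1 was the gene that differed from all 3 other drugs, and Cyp46a1 and Msmo1 differed from fluoxetine and tianeptine. Against tianeptine 0 genes were called without agomelatine 1 and 0 with array weights. With only the 2 groups fitted, Idi1 and Insig1 stayed called against fluoxetine and Insig1 alone against tianeptine.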

How the results depend on the processing

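Of 1048 values of named genes under the alternatives, 936 kept their direction and their side of the threshold, 105 lost the threshold, 4 gained it and 3 reversed. Only genes called in the main fit can lose the threshold, and the 1048 values also include genes not called there. The share of called results that lost their call was therefore larger than 105 of 1048. The 3 that reversed were Cyp51 with the oligodendrocyte score as a covariate, at -0.15 against stress, -0.09 against control and -0.09 against fluoxetine. That covariate separates agomelatine from the other groups, and under it 0 cholesterol genes were called in the F test and in each of the 5 comparisons of agomelatine. The differences of Insig1 and Cyp46a1 against stress were then 0.45 and -0.36, and that of Idi1 against control 0.73. A covariate for choroid plexus left 0 calls in the F test, 2 for agomelatine against control and 2 against tianeptine. The F test called 5 with the repeat control arrays, with equal array medians, with a further quantile normalisation and at an adjusted p under 0.1. Agomelatine against stress called 5 with equal medians (Sqle, Cyp51, Insig1, Stard4 and Cyp46a1), 4 at an adjusted p under 0.1 and 1 (Insig1, with Cyp46a1 lost) when only the 2 groups were fitted, and against imipramine 3 with equal medians, 4 at an adjusted p under 0.1 and 2 with array weights. Agomelatine against control called 2 with array weights and 2 with only the 2 groups fitted, against fluoxetine 2 with only the 2 groups fitted, and against tianeptine 0 with array weights, 3 without the dim filter, 3 without the variance trend and 1 with only the 2 groups fitted. Imipramine against control called 1 gene, Idi1, with the repeat control arrays and with array weights, and fluoxetine against imipramine called 5 with array weights (Idi1, Fdft1, Nsdhl, Apoe and Cyp46a1). The cause of these changes was not tested.

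The replicate block, for numbers that were not found to pair animals, gave 3 calls against control and 3 against tianeptine with agomelatine, and the other counts were within 1.5 times. Leaving out 1 animal gave 0 (without agomelatine 1) to 5 (without stress 1) calls in the F test, 2 to 3 for agomelatine against stress, 2 to 6 against control, 4 to 8 against fluoxetine, 1 to 4 against imipramine and 0 to 6 against tianeptine. Every other comparison stayed at 0. The enzyme median after stress was 0.027 with the first control arrays and 0.025 with equal medians, and ran from 0.063 to 0.112 with 1 animal left out. The export median was 0.012 and 0.006 after stress in those settings, -0.073 for imipramine and -0.058 for agomelatine against stress with equal medians. With 3 animals a group, small differences could not be called.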
